A study of Mus musculus with 16 samples.

Results

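The 339 peaks described here were called for Nan-KLF1 and overlapped no peak called for KLF1, yet held a cytosine at the fourth base of their motif, the base found there in CACCC boxes. They were chosen by rule from the authors' peak lists: a Nan-KLF1 peak that overlapped no KLF1 peak by 1 bp or more, and that had C as the fourth base of its central motif, the 8-base sequence the authors assigned to it. The rule found 339 of 2758 Nan-KLF1 peaks, or 12.3%, and 22.3% of the 1523 Nan-KLF1 peaks that overlapped no KLF1 peak. They are called the Nan-only C peaks below. Because both lists and the motif chose them, their absence from the 5326 KLF1 peaks and the fourth base are not results.

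KLF1 is a zinc finger transcription factor of red cell precursors that binds CACCC boxes at globin, heme and red cell membrane genes and mostly activates them. Each of its zinc fingers contacts a few neighbouring bases of the box. Nan is a missense change in the middle zinc finger that causes a dominant anemia in mice, and the motif bases that finger reads lie in the centre of the box. In the textbook KLF1 site the base after the fourth is a purine, so a CACCC-type motif carries A or G there.

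The study held 16 samples. Binding was measured in K1 cells, immortalized mouse erythroblasts that lack KLF1, which carried a tamoxifen-inducible fusion of KLF1 (K1-ER) or of Nan-KLF1 (K1-NanER) with the estrogen receptor. Both lines received 200 nM 4-hydroxytamoxifen for 3 h, and a KLF1 antibody was used in each. Each factor gave 1 ChIP library, made from 3 pooled replicates, and 1 input library, so peak values had no replicate check. New RNA was labelled with 500 µM 4-thiouridine (4sU) for 1 h in 2 libraries each of K1-ER (clones A and C), K1-NanER (clones B and X) and parental K1 cells, all given 200 nM 4-hydroxytamoxifen. Polyadenylated RNA, depleted of globin transcripts, came from 3 Nan/+ and 3 wild-type (+/+) fetal livers at embryonic day 14.5. K1-NanER cells made no wild-type KLF1, whereas Nan/+ livers kept a normal allele beside the mutant allele. With different clones behind each fusion, the clone and the transgene cannot be told apart. The expression tables gave 1 level per group, in FPKM (fragments per kilobase of transcript scaled to the number of mapped fragments), and the depth of each library is unknown. Of 8 erythroid marker genes, 3 stood in the table of changed 4sU genes, which lists only genes that differed from K1 in K1-ER or in K1-NanER. Of 18 markers of macrophages, megakaryocytes, granulocytes, lymphoid cells, hepatocytes and endothelium, Vwf and Cd79a stood in it. None of these 26 markers had a Nan-only C peak.

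A central motif was given for 1883 of the 2758 Nan-KLF1 peaks and none for 875, and the motifs differed only at the third, the fourth and the fifth base. The 339 peaks used 6 forms. They are shown because the fifth base, in capitals, differed in its shares between these peaks and KLF1 peaks with the same cytosine.
T form after cytosines: ccccTccc
G form after cytosines: ccccGccc
T form with an adenine: ccacTccc
G form with an adenine: ccacGccc
A form after cytosines: ccccAccc
A form with an adenine: ccacAccc

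The leading form was not a CACCC box of the textbook kind. The T form ccccTccc was the motif of 113 of the 339 peaks (33.3%), and ccccGccc was that of 108 (31.9%). The form ccacTccc followed with 53 peaks (15.6%) and ccacGccc with 36 (10.6%). The A forms were rare, with 21 peaks (6.19%) for ccccAccc and 8 peaks (2.36%) for ccacAccc, the form closest to the CACCC box of the adult beta-globin promoter.

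Thymine was the fifth base in 166 of 339 Nan-only C peaks, 49.0% (95% Wilson interval 43.7 to 54.3%). All such intervals cover counting error only, and peaks of 1 experiment are not independent replicates. Among the 608 shared C peaks, Nan-KLF1 peaks with the same cytosine that did overlap a KLF1 peak, thymine stood there in 141, 23.2% (20.0 to 26.7%). In the 2704 KLF1-only C peaks, KLF1 peaks with that cytosine that overlapped no Nan-KLF1 peak, the share was 13.6%. The order therefore ran from the Nan-only through the shared to the KLF1-only peaks, and the first 2 intervals did not overlap. The 591 Nan-only peaks with adenine or thymine as the fourth base had thymine as the fifth base in 8.29%, under the 16.5% of the 345 shared peaks with A or T there, so the order seen in the C peaks did not hold for those motifs. Over all motifs thymine was the fifth base in 23.1% of Nan-only, 20.8% of shared and 17.3% of all KLF1 peaks. Guanine stood at 65.6% in the shared and 42.5% in the Nan-only C peaks. Adenine took 11.2% and 8.55%, beside 36.1% of the KLF1-only C peaks, so it was less frequent in both Nan-KLF1 classes. By whole form, ccccTccc made up 33.3% of the Nan-only, 16.0% of the shared and 8.14% of the KLF1-only C peaks, while ccacAccc made up 19.7% of the KLF1-only ones.

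**Figure D1:**
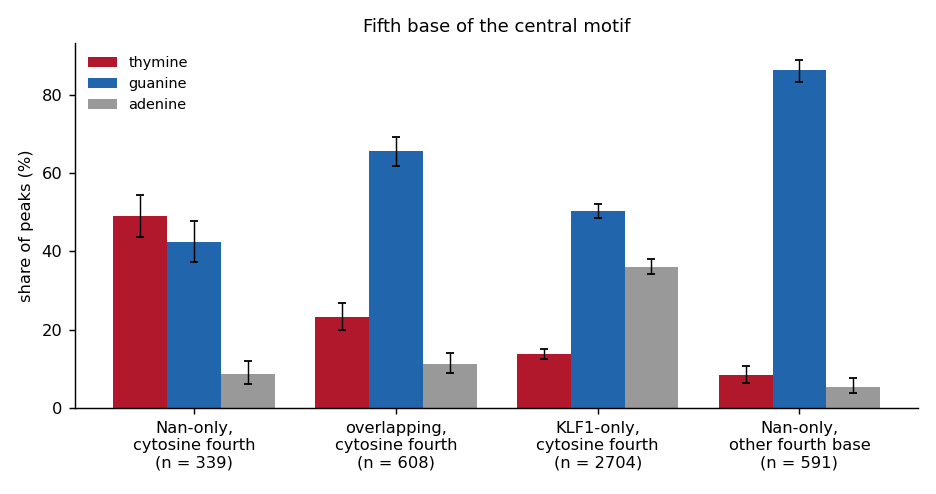
Share of peaks, in percent, by the fifth base of the central motif in 4 classes of peaks, with 95% Wilson intervals. Thymine reaches 49.0% in the Nan-only C peaks, against 23.2% in shared and 13.6% in KLF1-only peaks with the same cytosine.

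The third base differed less between the Nan-only and the shared C peaks. It was adenine in 97 of the 339 peaks (28.6%) and cytosine in 242 (71.4%), beside adenine in 31.7% of the shared and 54.1% of the KLF1-only C peaks. In the Nan-only peaks with A or T as the fourth base it was adenine in 13.5%.

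The share of thymine was higher than in the other C peaks at promoters, in introns and at distal sites. At promoters thymine was the fifth base in 28 of 87 Nan-only peaks (32.2%), against 17.6% of the shared and 15.4% of the KLF1-only C peaks. In introns it was 77 of 139 (55.4%) against 23.3% and 13.4%, and at distal sites 41 of 76 (53.9%) against 35.9% and 12.4%. At distal sites the intervals of the Nan-only and the shared peaks overlapped (42.8 to 64.7% and 27.8 to 44.9%). At promoters they nearly met (23.3 to 42.6% and 13.5 to 22.5%). The higher share of thymine also held on both sides of the median fold enrichment of the Nan-KLF1 list. Fold enrichment, the ChIP signal over input that the authors' lists give per peak, is used here only to rank peaks within a list. At or above 107.23 the share was 87 of 161 (54.0%), and under it 79 of 178 (44.4%). Peaks within 10 kb of a KLF1 peak had thymine in 34 of 73 cases (46.6%) and the others in 132 of 266 (49.6%).

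Most of the 339 peaks lay away from promoters. The authors placed 139 in introns (41.0%), 87 at promoters (25.7%, interval 21.3 to 30.6%), 76 at distal sites (22.4%) and 14 in intergenic sequence (4.13%). Untranslated exons held 9, coding exons 8 and the sequence just downstream of genes 6. The promoter share was close to the 24.4% of all Nan-KLF1 peaks and the 25.6% of the KLF1-only C peaks. It lay between the 44.9% (41.0 to 48.9%) of the shared C peaks and the 10.5% of the Nan-only peaks with A or T as the fourth base. Nan-only peaks without a motif had 7.42% at promoters.

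**Figure D2:**
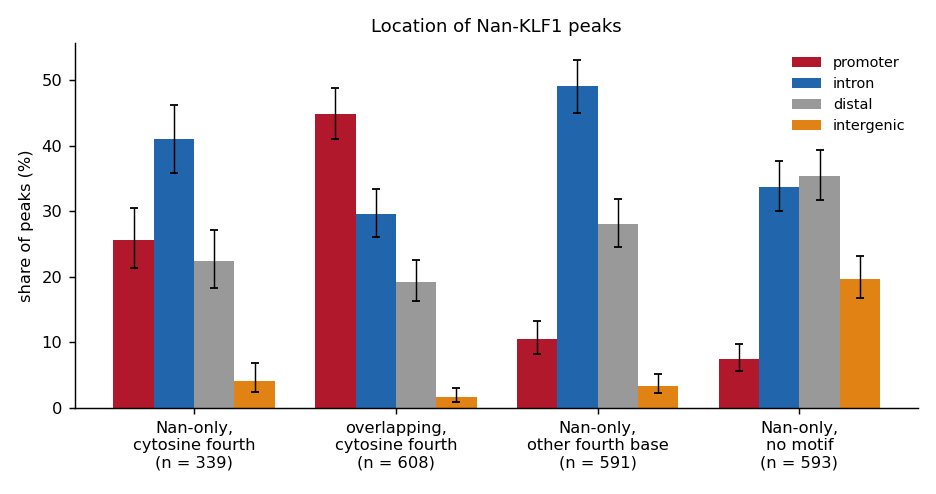
Share of peaks, in percent, at each kind of location assigned by the authors, by peak class, with 95% Wilson intervals. The Nan-only C peaks had 25.7% at promoters, under the 44.9% of shared peaks with the same cytosine and above the 10.5% of Nan-only peaks with adenine or thymine there.

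Location and motif form moved together. Among peaks with ccccGccc, 43 of 108 (39.8%) were at promoters, and among those with ccacGccc 11 of 36 (30.6%). Among peaks with ccccTccc the share was 25 of 113 (22.1%), and with ccacTccc it was 3 of 53 (5.66%). Peaks with an A form were at promoters in 5 of 29 cases (17.2%). In the KLF1-only C peaks the promoter share was 31.9% with guanine, 29.0% with thymine and 15.7% with adenine as the fifth base. In the shared C peaks it was 51.1%, 34.0% and 30.9% in that order. Guanine in that place completes a CpG, and whether this bears on location was not tested.

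For promoter peaks the motif could be looked up in RefSeq promoter windows of build GRCm38.p6, which run from 250 bases before to 50 after each gene's start. Of the 87 promoter peaks, 73 had a gene with such a window, and the peak's own motif was found on either strand in 55 (75.3%). Any of the 6 forms occurred in 66 of the 73 (90.4%), against 10929 of 27025 genes (40.4%) over all windows. The peaks were chosen for holding such a motif, so nothing is read from that difference. Over all genes, ccccGccc occurred in 19.6% of windows, ccccTccc in 13.4%, ccccAccc in 11.3%, ccacGccc in 6.06%, ccacTccc in 4.1% and ccacAccc in 4.09%. A match is a description of the window and not a mapped site, since the peaks are on build mm9 and were not converted. The following stretches are shown for genes whose levels are given further on, 5′ to 3′ on the gene's strand, with the match in capitals.
Nqo1 (chr8:107403239-107403326, minus strand): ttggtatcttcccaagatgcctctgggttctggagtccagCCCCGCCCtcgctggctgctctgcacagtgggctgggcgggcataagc
Zfp771 (chr7:127244374-127244461, plus strand): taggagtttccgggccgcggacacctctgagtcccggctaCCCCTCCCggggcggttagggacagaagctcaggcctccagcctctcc
Cggbp1 (chr16:64851784-64851871, plus strand): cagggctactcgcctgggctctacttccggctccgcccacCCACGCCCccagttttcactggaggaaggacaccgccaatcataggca
Cdkn1a (chr17:29093551-29093638, plus strand): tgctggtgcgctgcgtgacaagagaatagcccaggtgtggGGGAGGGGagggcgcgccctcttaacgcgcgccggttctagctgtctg
Hnrnph1 (chr11:50377648-50377735, plus strand): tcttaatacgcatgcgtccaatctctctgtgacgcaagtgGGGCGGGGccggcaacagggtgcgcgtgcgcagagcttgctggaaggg
Mybpc3 (chr2:91117939-91118026, plus strand): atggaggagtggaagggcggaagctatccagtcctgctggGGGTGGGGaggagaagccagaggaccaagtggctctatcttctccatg

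In Nqo1, Zfp771 and Cggbp1 the motif read as printed, and its first base lay 81, 112 and 177 bases before the RefSeq start. In Cdkn1a, Hnrnph1 and Mybpc3 the capitals are the reverse complement of the peak's motif, 178, 109 and 165 bases before the start. In mm9, where the peaks were called, the summits lay 67 bp upstream of the 5′ end of the Nqo1 locus, 150 bp upstream for Zfp771, 234 bp for Cggbp1, 546 bp for Hnrnph1 and 497 bp for Mybpc3. The Cdkn1a summit lay 2653 bp inside its locus, which in that table starts farther upstream than the peak.

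Peak height was somewhat under that of the whole Nan-KLF1 list. Fold enrichment ran from 30.8 to 545.88 with a median of 97.48 (quartiles 80.0 and 126.72). The median was 107.23 over all Nan-KLF1 peaks, 126.72 in the shared C peaks, 107.23 in the Nan-only peaks with A or T as the fourth base and 87.73 in those without a motif. The values came in steps, 92 distinct ones in 339 peaks, with 87.73 given to 37 peaks, so small differences of median carry little. Peak width had a median of 458 bp (221 to 1250 bp), beside 488.5 bp over the whole list. By form, the median fold enrichment was 107.23 for ccccTccc, ccacTccc and ccccAccc, 97.48 for ccccGccc, 87.73 for ccacGccc and 82.9 for ccacAccc.

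The highest peak lay at the promoter of Cdh15 (chr8:125372005-125372429, mm9 as for all peaks, ccccGccc), the gene of M-cadherin, at 545.88-fold over input. The nearest KLF1 peak was 21736 bp away. An intron of 8430427H17Rik followed at 467.89-fold (chr2:153319858-153320328), 399 bp from a KLF1 peak and near a gene to which the authors assigned 10 KLF1 peaks. Adam15, a membrane metalloprotease gene, held an intronic peak of 374.5-fold (chr3:89149126-89149798). At the promoter of B4galt5, a galactosyltransferase gene, a peak of 331.42-fold with ccccTccc (chr2:167174679-167175377) was 265637 bp from any KLF1 peak. Mlf2 (302.18), the ubiquitin-conjugating enzyme gene Ube2z (282.69), the glycosidase gene Engase (272.94), the galectin gene Lgals1 (272.94), Dbndd1 (253.44) and the homeobox gene Lhx3 (233.95) completed the 10 highest. Of these 10 peaks 6 had ccccGccc, and 3 of their genes stood in the 4sU table.

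The distance to KLF1 binding varied widely. The gap to the nearest KLF1 peak ran from 40 to 3900503 bp with a median of 40478 bp, and was 10 kb or less for 73 peaks (21.5%) and 100 kb or less for 233 (68.7%). The Nan-only peaks with A or T as the fourth base had nearly the same gaps, with a median of 40387 bp and 21.3% within 10 kb. Nan-only peaks without a motif were farther off, with a median of 122675 bp and 13.3%.

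**Figure D3:**
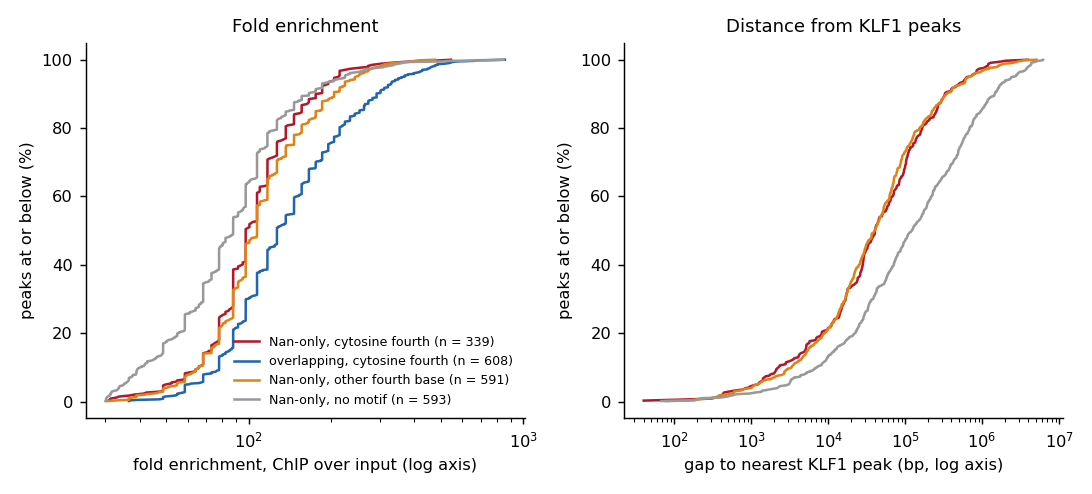
Cumulative share of peaks, in percent, against fold enrichment over input (left, log axis, 4 classes of Nan-KLF1 peaks) and against the gap to the nearest KLF1 peak in bp (right, log axis, the 3 Nan-only classes). The Nan-only C peaks lie left of the overlapping C peaks in fold enrichment (medians 97.48 and 126.72), and their gaps run along those of the Nan-only peaks with A or T as the fourth base (medians 40478 and 40387 bp).

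At the edge of the rule stood Zfp703, a zinc finger gene, whose intronic peak (chr8:28088350-28089060, ccccTccc, 86.69-fold) ended 40 bp from a KLF1 peak without a motif. Cnn2, the gene of the actin-binding protein calponin 2, had a distal peak (chr10:79449554-79449927, ccacTccc, 126.72-fold) 124 bp from a KLF1 peak whose motif was ccccGccc. Gse1 (300 bp), Lgals1 (346 bp) and Cdkn1a (366 bp) came next. Just outside the rule, the smallest overlaps of a C peak with a KLF1 peak in base pairs were 204 bp at Rabep1, 232 bp at C2cd2l, 243 bp at Elovl6, 244 bp at Mir148a and 251 bp at Grina. These were mostly narrow peaks: those at Rabep1, C2cd2l and Grina lay wholly inside the KLF1 peak, Elovl6 shared 97.6% of its length and Mir148a 42.4%. No C peak fell between the gap of 40 bp and the overlap of 204 bp. At Mir148a the Nan-KLF1 peak had ccccTccc and the overlapping KLF1 peak ccccGccc, while the other 4 pairs had the same motif in both peaks.

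Within 1 kb of a KLF1 peak lay 15 of the 339 peaks (4.42%), and in 13 of these pairs the authors named the same gene for both. The motif was the same in 1 pair, and the KLF1 peak had no motif in 7. The fold enrichment of these KLF1 peaks ran from 30.14 to 180.15 with a median of 75.9.

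The authors named a gene for all but 18 peaks, 314 genes in all. Erf, Myrf, Flrt1, Slc2a1, Tnrc18, Gse1 and Gm16863 each had 2 peaks. At Erf, which encodes a repressor of the ETS family, both peaks had ccccTccc and lay 230 bp apart (chr7:26034088-26034429 and chr7:26034659-26035129, 116.97- and 87.73-fold). Flrt1 peaks were 1472 bp apart and Myrf peaks 7524 bp. Chromosome 11 held 43 peaks (12.7%), beside 7.72% of all Nan-KLF1 peaks.

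Of the 314 genes, 58 (18.5%) stood in the authors' deposited table of 4sU genes, through 62 peaks. The share was 19.3% for genes of all Nan-KLF1 peaks and 26.25% for those of the shared C peaks. It was 15.8% for Nan-only peaks with A or T as the fourth base and 13.3% for those without a motif. A gene was called where the authors' q (their p-value adjusted for multiple testing) was at most 0.05. Of the 58, K1-NanER cells had 33 called higher than in K1 (56.9%) and 8 lower (13.8%), per the authors' deposited table. Over all 1556 genes of that table, 47.4% were called higher and 28.3% lower. Genes of all Nan-KLF1 peaks had nearly the same shares as the 58, with 56.2% higher and 13.3% lower in K1-NanER. In K1-ER they had 60.5% higher and 5.08% lower. In K1-ER cells, in which these sites held no KLF1 peak, 35 of the 58 were called higher (60.3%) and 3 lower (5.17%), beside 37.9% and 11.5% over the authors' deposited table. Log2 fold changes of the 58 had a median of 1.46 in K1-NanER and 1.31 in K1-ER, against 1.04 and 0.72 over all of the authors' deposited table, with levels of 0.1 FPKM kept as listed. For genes of all Nan-KLF1 peaks these medians were 1.30 and 1.35. Both comparisons used the same K1 libraries, and K1-NanER was not compared with K1-ER by a test. Side by side in the authors' deposited table, 19 genes were called higher in both, 2 lower in both, 20 in K1-NanER alone and 17 in K1-ER alone. Among peaks at or above the median fold enrichment of the Nan-KLF1 list, the order of the lines turned, with 20 genes higher in K1-NanER and 13 in K1-ER per the authors' deposited table. How many of their genes stood in that table was not counted. Calls for other peak classes were not split in this way, so the turn cannot be called particular to these peaks. At q of at most 0.01 the genes lower in K1-NanER numbered 2 and those higher 25, per the authors' deposited table.

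Genes of other peak classes are given for comparison. In the authors' deposited table the Nan-only peaks with A or T as the fourth base had 84 genes. Of these, 51 were higher (60.7%) and 14 lower (16.7%) in K1-NanER, and 48 higher and 6 lower in K1-ER. Nan-only peaks without a motif had 60 genes there, 38 higher (63.3%) and 8 lower (13.3%) in K1-NanER and 28 higher and 4 lower in K1-ER. The shared C peaks had 147 genes, 79 higher and 11 lower in K1-NanER and 102 higher and 4 lower in K1-ER, also in the authors' deposited table.

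Some of the genes also had KLF1 binding elsewhere. A KLF1 peak was assigned to 97 of the 314 genes (30.9%), beside 34.5% for Nan-only peaks with A or T as the fourth base and 28.4% for those without a motif. The authors' deposited table held 33 of the 97 genes, with 17 higher in K1-NanER (51.5%) and 1 lower, and with 27 higher in K1-ER (81.8%) and none lower. Of the 217 genes without a KLF1 peak, 25 stood in the authors' deposited table, with 16 higher in K1-NanER (64.0%) and 7 lower (28.0%), and with 8 higher in K1-ER (32.0%) and 3 lower (12%). Of these 25, 9 were called in both lines, 14 in K1-NanER alone and 2 in K1-ER alone. Every gene of that table was called in at least 1 line, so a gene not called in K1-ER had to be called in K1-NanER. The shares of the lines are therefore tied and could not vary freely. Among all genes of the authors' deposited table, 53.3% of those with a KLF1 peak and 42.3% of those without were higher in K1-NanER. For K1-ER these shares were 58.8% and 20.2% in the authors' deposited table. Lower calls took 14.6% with and 39.98% without a KLF1 peak for K1-NanER, and 4.49% and 17.4% for K1-ER, again over the authors' deposited table. The 64.0% was not particular to the Nan-only C peaks. Without a KLF1 peak, 19 of 31 genes (61.3%) of the Nan-only peaks with A or T as the fourth base were higher in K1-NanER. For Nan-only peaks without a motif it was 14 of 23 (60.9%), both in the authors' deposited table.

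**Figure D4:**
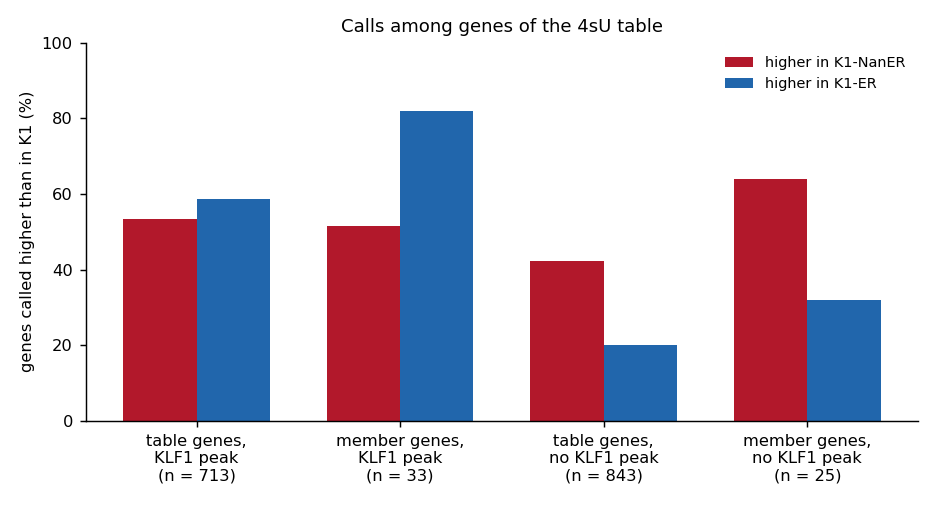
Bars give the percent of genes called higher than in K1, in K1-NanER (red) and K1-ER (blue) cells, for all genes of the authors' deposited table and for the genes of the Nan-only C peaks (member genes), split by whether a KLF1 peak was also assigned to the gene. With a KLF1 peak 27 of 33 member genes were higher in K1-ER, and without one 8 of 25. Every gene shown was called in at least 1 line, so the red and blue bars are tied and could not vary freely.

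Genes with a peak at the promoter were called higher in K1-NanER in 12 of 16 cases and lower in 2 in the authors' deposited table, where 47.4% of all genes were higher and 28.3% lower. For K1-ER 9 of the 16 were higher and 1 lower in the authors' deposited table, beside 37.9% and 11.5% of all genes. Genes with a peak elsewhere were higher in K1-NanER in 21 of 43 cases and lower in 6, in the authors' deposited table. For K1-ER 27 of the 43 were higher and 2 lower, in the authors' deposited table. By motif, 17 of 35 genes with a T-form peak and 17 of 25 with an A- or G-form peak were higher in the authors' deposited table. These are counts with no test. Of the 15 genes with a KLF1 peak within 1 kb, 11 stood in the authors' deposited table, with 8 higher and none lower in K1-NanER and with 9 higher in K1-ER.

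Levels of single genes showed which rose in both lines. Cdkn1a, the gene of the cell cycle inhibitor p21, has its peak at the promoter (chr17:29230411-29230756, ccccTccc, 116.97-fold). In the authors' deposited table Cdkn1a was at 4.82 FPKM in K1 cells, 51.3 in K1-ER and 32.5 in K1-NanER (log2 fold change 2.75 in K1-NanER, authors' q = 0.00213). Sertad3, a transcriptional regulator gene with a promoter peak (chr7:28258120-28258857, ccccTccc), was at 13.2, 129 and 59.6 FPKM in that order in the authors' deposited table (2.17, authors' q = 0.00213). Both genes thus stood higher in the presence of either factor, with the higher level in K1-ER.

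Mybpc3, which encodes a myosin-binding protein of heart muscle, has a promoter peak (chr2:90957463-90958332, ccccAccc). Its level was 0.815 FPKM in K1 cells, 12.6 in K1-ER and 21.6 in K1-NanER per the authors' deposited table (log2 fold change 4.73, authors' q = 0.00213). Map7d1, a microtubule-associated protein gene, went from 5.02 FPKM in K1 to 19.5 in K1-ER and 51.1 in K1-NanER per the authors' deposited table (3.35). Cbx5, the gene of the heterochromatin protein HP1 alpha, was at 6.77, 16.2 and 28.6 FPKM per the authors' deposited table (2.08, promoter peak). In these 3 genes the K1-NanER level was the highest of the 3 groups.

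The ephrin receptor gene Epha5 was at 0.531 FPKM in K1 cells, 3.25 in K1-ER and 5.13 in K1-NanER per the authors' deposited table (log2 fold change 3.27), but its summit lay 96989 bp from the locus. Bcl9l, a coactivator gene of the Wnt pathway, was at 0.750, 3.33 and 5.93 FPKM per the authors' deposited table (2.98). Cnn2 and the actin-severing gelsolin gene Gsn were listed at 0.1 FPKM in K1, the lowest value of that column, which 101 genes share. A fold change from that value is not given. Cnn2 reached 3.15 FPKM in K1-ER and 3.03 in K1-NanER per the authors' deposited table, and Gsn 1.54 and 1.70. Both were called higher in both lines.

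Other genes passed the test in K1-NanER and not in K1-ER. Tex13, a testis-expressed gene, was listed at 0.1 FPKM in K1 cells, 0.0944 in K1-ER and 13.7 in K1-NanER per the authors' deposited table (authors' q = 0.00213). Its peak (chrX:137386097-137386576, ccacTccc, 126.72-fold) was 38471 bp from the locus and 330447 bp from any KLF1 peak. Pitpna, a phosphatidylinositol transfer protein gene, was at 1.74, 4.91 and 12.3 FPKM per the authors' deposited table (log2 fold change 2.82 in K1-NanER, authors' q = 0.00213, and 1.5 in K1-ER, authors' q = 0.0868). The difference between the lines was not tested for either gene.

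Genes bound at the promoter were among these. Hnrnph1, which encodes a splicing factor, was at 36.2 FPKM in K1 cells, 51.4 in K1-ER and 127 in K1-NanER per the authors' deposited table (log2 fold change 1.81, authors' q = 0.00213). Cul3, the scaffold gene of ubiquitin ligases, was at 10.5, 12.1 and 31.1 FPKM per the authors' deposited table (1.56). Cggbp1, the gene of a CGG repeat-binding protein, was at 5.49, 9.84 and 16.5 FPKM per the authors' deposited table (1.59). Foxh1, a forkhead partner of SMAD proteins, was at 74.7, 101 and 236 FPKM per the authors' deposited table (1.66). In each of these 4 the K1-ER level lay between those of K1 and K1-NanER. The authors also assigned a KLF1 peak to Cggbp1 and to Foxh1, but none to Cul3. The Foxh1 peak lay 968 bp from a KLF1 peak. Among the 29 genes that rose in K1-NanER from a K1 level above 0.1 FPKM, the median log2 fold change was 1.83 (1.08 to 4.73), per the authors' deposited table.

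**Figure D5:**
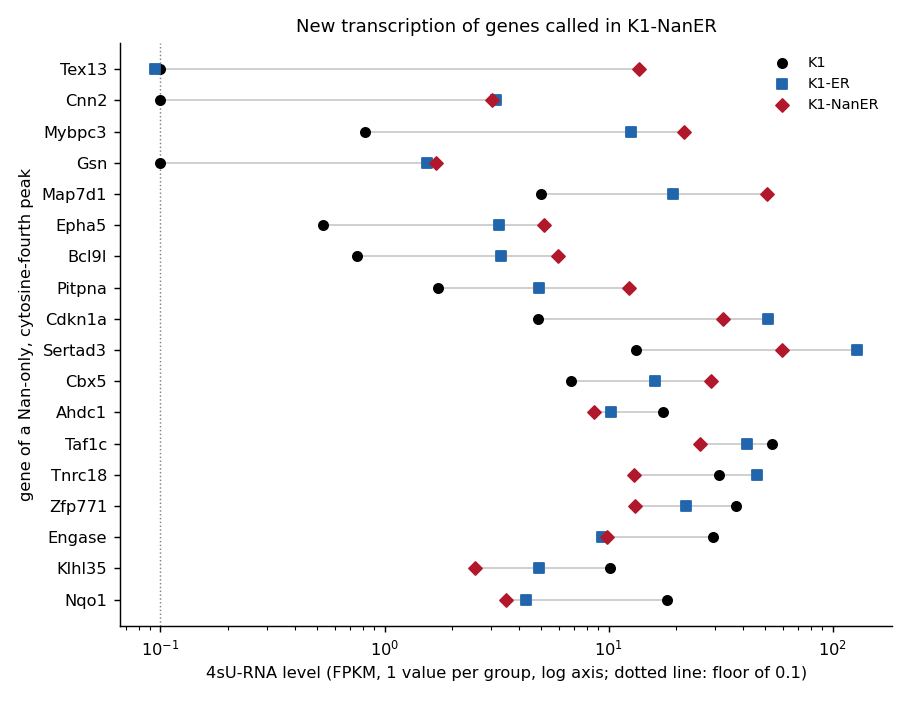
4sU-RNA level in FPKM (log axis) of the rises and falls in K1-NanER named in the text by the rule of size, for K1, K1-ER and K1-NanER cells, 1 value per group from the authors' deposited table, without error bars. Cdkn1a and Sertad3 are highest in K1-ER, Tex13 stands at the dotted 0.1 FPKM line in K1 and close to it in K1-ER, and Nqo1 is lower in both lines than in K1.

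The 8 falls were smaller. Nqo1, a quinone reductase gene of the oxidative stress response, has a promoter peak (chr8:109926905-109927600, ccccGccc, 127.29-fold). It was at 18.2 FPKM in K1 cells, 4.28 in K1-ER and 3.50 in K1-NanER per the authors' deposited table (log2 fold change -2.38, authors' q = 0.0127). Engase was at 29.3, 9.37 and 9.84 FPKM per the authors' deposited table (-1.58, authors' q = 0.00213). Only these 2 of the 8 were also called lower in K1-ER.

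Zfp771, a zinc finger gene with a promoter peak (chr7:134387587-134388314, ccccTccc), was at 36.9, 22.2 and 13.1 FPKM per the authors' deposited table (log2 fold change -1.5, authors' q = 0.0116). Tnrc18, a chromatin protein gene with a coding-exon and an intronic peak, was at 31.2 FPKM in K1 cells, 46.1 in K1-ER and 13.0 in K1-NanER per the authors' deposited table (-1.27, authors' q = 0.00804). Taf1c, the gene of an RNA polymerase I factor, was at 53.6, 41.3 and 25.6 FPKM per the authors' deposited table (-1.07). Klhl35 (-2.00) and Ahdc1 (-1.03) were also called lower in the authors' deposited table.

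Fixed gene lists held 7 of the 314 genes. Of 209 genes on 8 lists of globins, heme and iron, red cell membrane, erythroid regulators, cell cycle, KLF and Sp factors, apoptosis and immediate early genes, 7 had a peak. Of 10 globin and 27 apoptosis genes none was among them, where 1 and 6 had any Nan-KLF1 peak. Heme and iron contributed Aco1 (1 of 30), which encodes cytosolic aconitase, an iron-responsive RNA-binding protein. The membrane list contributed the glucose transporter gene Slc2a1 (1 of 35), with a promoter peak (chr4:118780992-118781471, ccccGccc, 77.98-fold) and an intergenic one (chr4:118728496-118728866, ccacAccc, 116.97-fold). Slc2a1 was at 57.8 FPKM in K1 cells, 127 in K1-ER and 63.6 in K1-NanER per the authors' deposited table, called in K1-ER (authors' q = 0.0231) and not in K1-NanER (authors' q = 0.892).

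The erythroid regulators contributed Ldb1 and Klf1 (2 of 31). Ldb1, the bridging factor of the GATA1 and TAL1 complex, has an intronic peak (chr19:46116536-46117013, ccccTccc, 155.96-fold). It was at 44.9 FPKM in K1 cells, 149.5 in K1-ER and 63.0 in K1-NanER per the authors' deposited table, and was called in K1-ER alone. The Klf1 peak lies in a coding exon (chr8:87425496-87426147, ccccTccc, 107.23-fold). The transgene carries Klf1 coding sequence as well, so reads from it and from the endogenous exon cannot be told apart. Sp2 (intron, chr11:96829892-96830267, ccccTccc, 175.46-fold), Cdkn1a and Fos (distal, chr12:86796079-86796565, ccccGccc, 54.87-fold) completed the 7.

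Whole lists are read against 47.4% higher and 28.3% lower in K1-NanER, and 37.9% and 11.5% in K1-ER, over all genes of the authors' deposited table. Of the cell cycle list 8 of 31 genes stood in the authors' deposited table, with 4 higher and none lower in K1-NanER and 4 higher and 1 lower in K1-ER. The KLF and Sp list had 9 of 26 in the authors' deposited table, with 7 higher in K1-NanER, 5 higher in K1-ER and none lower. Erythroid regulators had 8 of 31 in the authors' deposited table, with 4 higher in K1-NanER, 7 higher in K1-ER and none lower. Heme and iron had 12 of 30 in the authors' deposited table, with 2 higher and 4 lower in K1-NanER and 8 higher and none lower in K1-ER. The membrane list had 12 of 35 in the authors' deposited table, with 5 higher and 1 lower in K1-NanER and 10 higher and none lower in K1-ER. Globins and their chaperone had 5 of 10 in the authors' deposited table, with 3 higher in K1-NanER, 5 higher in K1-ER and none lower. Apoptosis had 11 of 27 in the authors' deposited table, with 4 higher and 3 lower in K1-NanER and 6 higher and 1 lower in K1-ER. Immediate early genes had 7 of 23 in the authors' deposited table, with 4 higher and none lower in K1-NanER and 5 higher and 1 lower in K1-ER. Most of these list genes had no Nan-only C peak, and the differences between the lines were not tested.

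In fetal liver, 13 of the 314 genes stood in the authors' deposited table of 793 genes that differed between Nan/+ and wild type. Over all Nan-KLF1 peaks it was 123 of 2143 genes. At q of at most 0.01, 5 of the 13 were left. Nan/+ was higher for 10 (76.9%) and lower for 3, where the authors' deposited table had 75.4% higher and 24.6% lower. Foxh1 stood at 2.60 FPKM in wild type and 63.0 in Nan/+ in the authors' deposited table (log2 fold change 4.60), so it was higher with the mutant in the livers and in K1-NanER cells. The superoxide dismutase gene Sod1 went from 613 to 2989.8 FPKM per the authors' deposited table (2.29), and Lcn2, which encodes a siderophore-binding secreted protein, from 9.70 to 41.3 (2.09). Zfp771 rose from 6.64 to 22.2 FPKM per the authors' deposited table (1.74), the opposite of its direction in K1-NanER. Gm3716 (1.94) and Mnf1 (1.29), a mitochondrial protein gene, were also higher in the authors' deposited table. Sh3tc2 fell from 4.43 to 1.23 FPKM (log2 fold change -1.85), Srl from 2.63 to 1.26 (-1.06) and Agfg2 from 29.4 to 14.2 (-1.05), in the authors' deposited table. Livers are mixtures, so fewer cells of a type and less RNA per cell cannot be told apart.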

How the data were processed

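Each of 2 ChIP-seq peak lists and 2 expression tables was used as deposited. The submitters' processing notes name MACS 1.4.2, TopHat2 2.0.10 and build mm9. The steps that assigned motif, location and gene (within 300 kb), and the program behind the expression tests, are unknown here (not given in the sources used). Fold enrichment is a ratio, ChIP over input, as deposited by the authors. The rank of a peak is the authors' score within its list. Their intersection columns were used only for an alternative. Levels are the authors' FPKM, 1 value per group, and log2 fold changes and p-values and q values are those of the authors' deposited tables. Values of 0.1 FPKM in the 4sU table were treated as a floor.

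Intervals overlapped from 1 bp (Python 3.11.15, pandas 2.3.3). Wilson intervals are 95% and came from SciPy 1.17.1. The overlap step alone was tested on simulated intervals. No test was fitted, since no table held counts or values per sample, and the depth is unknown. The 4sU table lists only genes called in at least 1 comparison, so its own genes are the background. Promoter sequences are RefSeq, GRCm38.p6. No mm9 genome was used, so peak sequences are not printed. 4sU labels both nascent and processed RNA made in the labelling time.

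Named were the 10 highest peaks, the 5 closest to the overlap limit on each side, the 12 largest rises and 8 largest falls in K1-NanER, up to 6 liver changes each way (all with q at most 0.05 and 1 FPKM or more in the higher group), genes of several peaks and those on the lists. Some results the rule names are not reported here. Hnrnph1, Cul3, Cggbp1 and the other genes with printed promoters were chosen after their values were seen. The members and lists were chosen with earlier results of these data known. Alternatives covered overlap, fold enrichment, motif, q, distance, floor and genes with KLF1 peaks.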

Additional observations from a re-analysis of the deposited data

How the results depend on the processing

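Of 64 recomputed values, from 9 results and 9 alternatives, 47 stayed within their limits and 17 moved. Requiring the full motif pattern had to return the same 339 peaks, because the motifs differed only at the third, the fourth and the fifth base. Its values are among the 47 but could not have moved, so they say nothing about stability. Counting only overlaps of at least 50% of a peak as shared gave 344 peaks, and counting KLF1 peaks within 1 kb as shared gave 324. Keeping only peaks at or above the median fold enrichment left 161 peaks with a median of 131.7, of whose genes 20 were higher and 5 lower in K1-NanER, 13 higher in K1-ER and 7 in the liver table. The authors' own intersection of the lists (761 shared peaks instead of 1235), an alternative chosen after seeing the data, gave 547 peaks, 34.7% at promoters and 40.8% with thymine as the fifth base, with 59 genes higher in K1-NanER, 77 higher in K1-ER and 27 in the liver table. Both alternatives change how many peaks enter. The fold enrichment cut had to raise the median and could only lower counts. The authors' intersection held none of the 339 peaks, so using it could only raise counts. With the fold enrichment cut, the count in K1-ER fell below that in K1-NanER, where it had been above, and the cause was not tested. Calls for other peak classes were not split in this way. Leaving out genes with a KLF1 peak, also chosen after seeing the data, left 16 genes higher in K1-NanER, 8 higher in K1-ER and 8 in the liver table. With q at most 0.01, 2 genes were lower in K1-NanER and 5 remained in the liver table. A stricter q and leaving out genes could only lower counts. The direction of such moves was fixed, so the tally of 47 and 17 does not measure stability. No paired analysis was possible because the tables give 1 value per group and each factor has 1 ChIP library, and for the same reason no replicate could be left out. Without replicates or counts, no error could be given for a peak or a level.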
